A study of Mus musculus with 4 samples.

Results

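This account describes genes of macrophages and other leukocytes in RNA-Seq of the whole urogenital sinus (UGS), the embryonic tissue that gives rise to the prostate and the bladder neck, of wild type and *Tbx18* mutant mice. The genes were chosen by name. Of 39 listed symbols, 38 were rows of the deposited table, which holds 25819 rows. They comprised 15 macrophage genes, 11 genes shared by leukocytes or by myeloid signalling, 3 subunits of the phagocyte NADPH oxidase, 4 genes of antigen presentation, 3 genes of mast cells and 2 of lymphoid cells. *Spi1* had no row under that symbol; the row named *Sfpi1*, its older symbol, is given apart and is not among the counts.

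Whole UGS was dissected from male embryos at 2 embryonic stages, E16.5 and E18.5 (days after mating), from matings of heterozygous parents on a B6C3-F1 hybrid background. Wild type embryos carried 2 intact *Tbx18* alleles, and their littermates, *Tbx18 GFP/GFP*, carried 2 null alleles in which GFP was knocked in, in every cell of the body. RNA of 3 embryos was pooled for each genotype and stage, giving 4 libraries. No spread between embryos could be measured and no test between groups was possible, so that differences have no replicate check within the sequencing. The paper reports RT-qPCR of several genes on individual UGS samples as a check of the pooled values. Those measurements were not used here. Values are FPKM, numbers of sequenced fragments scaled to the length of the transcript and to the depth of the library, so that they can be compared between genes.

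Macrophages reach embryonic organs early, from yolk sac and fetal liver precursors, and settle there as resident cells that engulf dying cells and respond to colony-stimulating factor through the receptor *Csf1r*. Most leukocytes share a set of surface and signalling proteins, such as the phosphatase CD45 and the adaptors DAP12 and Fc receptor gamma, whereas mast cells depend on the receptor tyrosine kinase Kit and store proteases such as carboxypeptidase A. Whole tissue RNA mixes these cells with stroma, muscle, epithelium and blood, and a lower level from fewer cells cannot be told apart from less RNA per cell.

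*Tbx18* itself, on chromosome 9 from 87597635 to 87626095 in the deposited table, whose genome build is not stated, measured 3.47 FPKM in E16.5 wild type, 2.50 in E16.5 mutant, 3.16 in E18.5 wild type and 2.93 in E18.5 mutant UGS. An FPKM of the whole gene does not tell RNA of the knock-in allele from that of an intact allele, so these values are only a weak check of the genotype labels. The depth, estimated from genes whose FPKM was that of a single read, was about 64000000 reads in E16.5 wild type, 55700000 in E16.5 mutant, 29000000 in E18.5 wild type and 52400000 in E18.5 mutant UGS. The E18.5 wild type library stood apart from the others. In it, 28.3% of 14973 genes were at least 1.5-fold lower than in each of the other 3 libraries, and 4.62% were at least 1.5-fold higher. The members differed little from that background on the low side, with 6 of 26 that reached 1 FPKM in any library (*Cyba*, *Cd14*, *Csf1r*, *Cx3cr1*, *Trem2* and *Coro1a*), while 3 (*Cd68*, *Fcer1g* and *Cpa3*) were higher in E18.5 wild type than in every other library by that margin. Every E18.5 comparison of genotypes rests on that library. Comparisons of the E18.5 mutant with the E16.5 wild type library are given for the members as a set and for some single members, and not for the other gene lists.

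The detected genes were mostly those of macrophages. In E16.5 wild type UGS, 23 of the 38 members reached 1 FPKM, among them 14 of 15 macrophage genes, 5 of 11 shared leukocyte genes, 2 of 3 oxidase genes, 2 of 3 mast cell genes, 0 of 4 antigen presentation genes and 0 of 2 lymphoid genes. The highest member in each of the libraries except E18.5 wild type was *Cyba*, which is also transcribed in cells other than leukocytes, at 25 FPKM in E16.5 wild type, 28.2 in E16.5 mutant, 13 in E18.5 wild type and 29.5 in E18.5 mutant UGS. In E18.5 wild type UGS the highest was *Cpa3*, at 15.6 FPKM. The summed level of the 15 macrophage genes was 64.0 FPKM in E16.5 wild type, 76.3 in E16.5 mutant, 64.6 in E18.5 wild type and 83.4 in E18.5 mutant UGS, with both mutant libraries above both wild type libraries. This order depends on the scaling, since with the library sums made equal the sums were 64.0, 70.9, 79.2 and 76.2, with E18.5 wild type the highest, and when centred on the median ratio of all genes to E16.5 wild type they were 64.0, 75.6, 81.3 and 85.8. In the other 3 libraries 12 to 14 of the 15 macrophage genes reached 1 FPKM, so that defining markers of macrophages were present, whereas the lymphoid members *Il7r* and *Cd3e* were at most 0.168 FPKM in any library. A total of 12 members were under 1 FPKM throughout, *Ptprc*, which encodes CD45, among them.

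**Figure D1:**
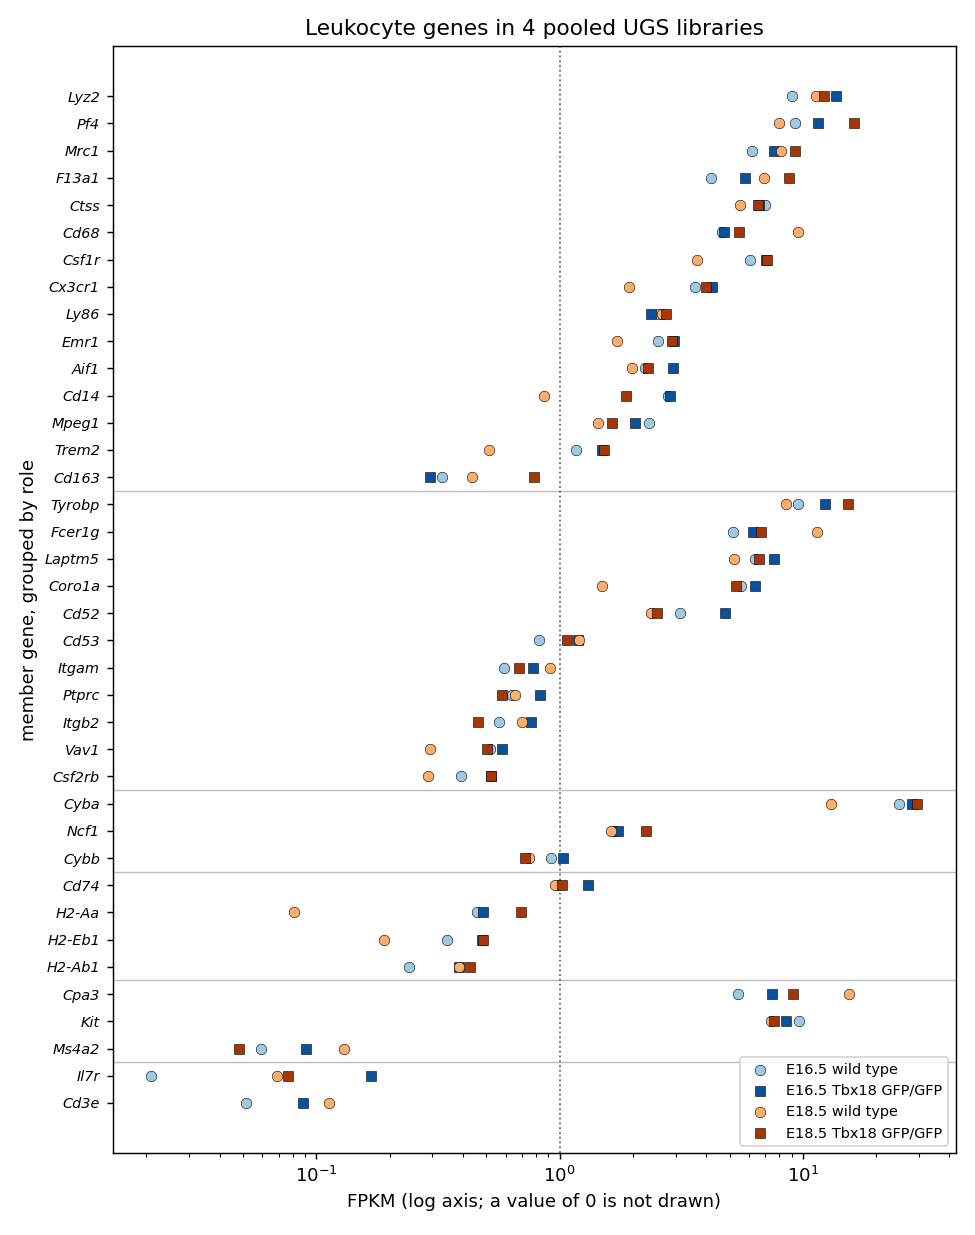
FPKM on a log axis of the 38 member genes in the 4 pooled libraries, grouped by role and ordered by mean level within a group, with 1 point per library and no error bar because each library is 1 pool. Circles are wild type and squares mutant; the dotted line marks 1 FPKM. E18.5 wild type (light orange circles) lies to the left for *Coro1a*, *Cd14*, *Trem2* and *H2-Aa* and to the right for *Cd68*, *Fcer1g* and *Cpa3*.

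Myeloid genes are often controlled from short promoters without a TATA box, by the Ets factor that *Spi1* encodes, which binds purine-rich elements with the core GAGGAA. Promoters of RefSeq genes (GRCm38.p6, 250 bases before to 50 bases after the start) were matched for 29 of the listed symbols. The 6 letters GAGGAA, on either strand, occurred in 15 of the 29 (51.7%), against 31.3% of 27025 genes and 28.3% of 32851 promoters in the same windows. Stretches are shown for the 5 members with the highest mean FPKM among those with a match upstream of the start, since these are among the most abundant of the genes described below. All are read 5′ to 3′ on the strand of the gene, with GAGGAA or its reverse complement TTCCTC in capitals, and where a gene has several matches the nearest to the start is shown.
*Pf4*, chr5:90772403-90772434, plus strand: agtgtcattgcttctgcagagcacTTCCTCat
*Kit*, chr5:75574740-75574793, plus strand: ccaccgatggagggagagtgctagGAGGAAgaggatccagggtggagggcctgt
*Mrc1*, chr2:14229355-14229408, plus strand: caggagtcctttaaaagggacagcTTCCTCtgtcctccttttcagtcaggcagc
*Laptm5*, chr4:130913254-130913307, plus strand: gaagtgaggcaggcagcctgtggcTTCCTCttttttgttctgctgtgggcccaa
*F13a1*, chr13:37050281-37050334, minus strand: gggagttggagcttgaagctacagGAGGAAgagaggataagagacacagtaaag
The match lay 2 bases before the start in *Pf4*, 29 in *Mrc1*, 32 in *Laptm5*, 60 in *F13a1* and 217 in *Kit*. A match of letters is a description of the sequence and not a measured binding site. The *Sfpi1* row, for the factor itself, was at 1.52 FPKM in E16.5 wild type, 2.33 in E16.5 mutant, 1.69 in E18.5 wild type and 1.74 in E18.5 mutant UGS.

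At E16.5, most leukocyte genes were slightly higher in mutant than in wild type UGS, and none by 2-fold. Of the 26 members that reached 1 FPKM in wild type or mutant, 22 were higher and 4 were lower in mutant UGS. Their median log2 ratio was 0.25, against a median of 0.01 over 14744 genes, of which 54.3% were higher. None of the 26 was at least 2-fold higher or lower, against a background of 0.434% and 1.11% of genes, and 2 (*Lyz2* and *Cd52*) were at least 1.5-fold higher, against 1.39%, and none was 1.5-fold lower, against 2.65%. Of the 26, 3 members, *Cybb*, *Cd53* and *Cd74*, reached 1 FPKM only in the mutant. Without regard to level, 33 of the 38 members were higher and 5 lower. Counting intervals, exact intervals of 95% on the ratio of the estimated read numbers, lay above 0 for 19 members, below 0 for 2 and across 0 for 17. These intervals cover counting error only and say nothing of differences between embryos. The counts over all 38 members have no share of all genes beside them, since the 54.3% is of genes that reached 1 FPKM. With the library sums made equal, 19 of the 26 members were higher and 7 lower, with a median log2 ratio of 0.14, while the share of all genes that were higher fell to 22.4%.

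At E18.5, single leukocyte genes differed more widely between the genotypes, in both directions, while their median ratio was below that of all genes. Of 25 members that passed the filter, 21 were higher and 4 were lower in mutant UGS, against 69.4% of 14711 genes higher, and the median log2 ratio was 0.24, below the median of all genes of 0.30. In all, 6 members (*Coro1a*, *Trem2*, *Cyba*, *Cd14*, *Cx3cr1* and *Pf4*) were at least 2-fold higher, which is 6 of 25 against a background of 15% of genes, and none was at least 2-fold lower, against 2.87%. Of the 25, *Cd14*, *Trem2* and *Cd74* passed the filter only through the mutant. With at least 1 FPKM required in both libraries, 4 of 22 members were at least 2-fold higher and none lower. No share of all genes is given under that stricter filter. At 1.5-fold, 9 were higher against 33.1% of genes, and 3 (*Cd68*, *Cpa3* and *Fcer1g*) were lower against 7.59%. Relative to the median ratio of genes that reached 1 FPKM in each of the libraries compared, 12 members were higher (background 51.2%) and 13 lower, with 2 at least 2-fold higher (background 8.08%) and 3 at least 2-fold lower (background 5.4%). With the E16.5 wild type library in place of that of E18.5, 19 of 25 members were higher in the E18.5 mutant and 6 lower (background 39.8% higher), with a median log2 ratio of 0.23 and a range from -0.57 to 1.06, against a median of -0.04 over all genes.

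**Figure D2:**
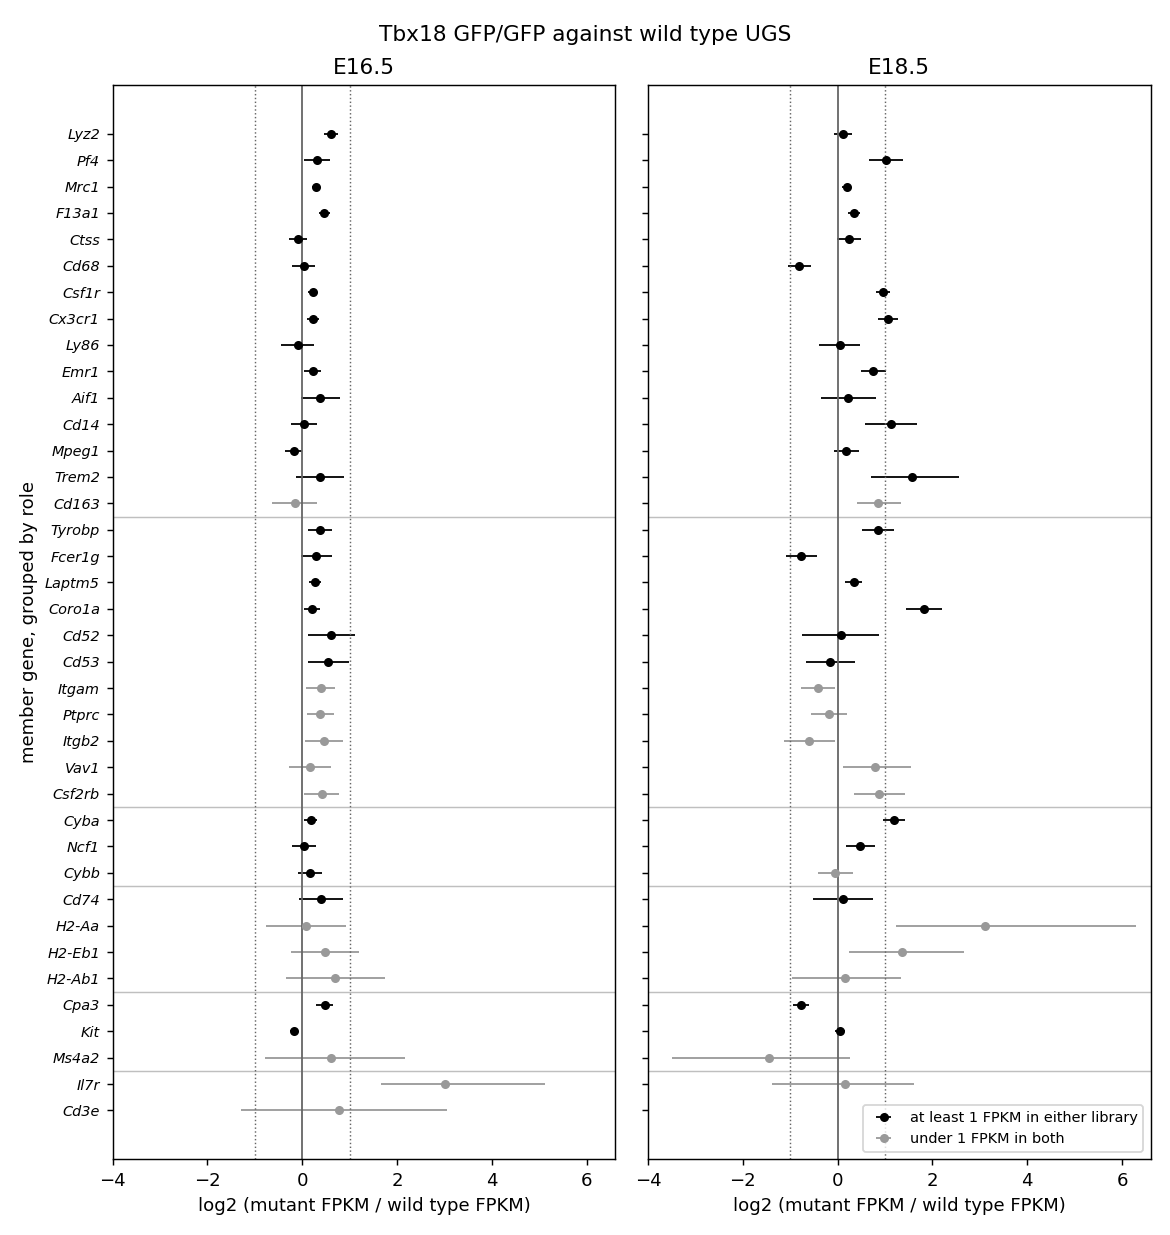
Log2 ratio of mutant to wild type FPKM of each member at E16.5 (left) and E18.5 (right); bars are 95% counting intervals and do not include variation between embryos. Black points reached 1 FPKM in either library of the stage and grey points did not; dotted lines mark 2-fold. At E16.5 the black points lie between -0.18 and 0.61, and at E18.5 between -0.81 and 1.83.

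The ratio at E18.5 followed the base composition of the transcript. Over all genes, the median log2 ratio went from -0.07 among genes with a median GC content of 40.1% to 0.89 among those with 60.1%, in 10 bins, and at E16.5 it stayed between 0.00 and 0.02 in all bins. Across the 25 members, Spearman's rho between ratio and GC content was 0.53 at E18.5, against 0.46 across 13200 genes, and across 26 members it was -0.05 at E16.5. The points of a correlation share their libraries, and genes are not independent replicates, so no p is given. When the trend of all genes on length and GC content was subtracted, 12 members were higher (background 51.3%) and 13 lower at E18.5 and the members at least 2-fold higher fell from 6 to 0 (background 3.05%), whereas *Cd68*, *Fcer1g* and *Cpa3* were then at least 2-fold lower (background 4.61%). *Coro1a*, whose transcript has a GC content of 58.0%, had a log2 ratio of 0.999 after subtraction. At E16.5 the same step left 21 members higher and 5 lower, against 51.3% of genes higher.

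**Figure D3:**
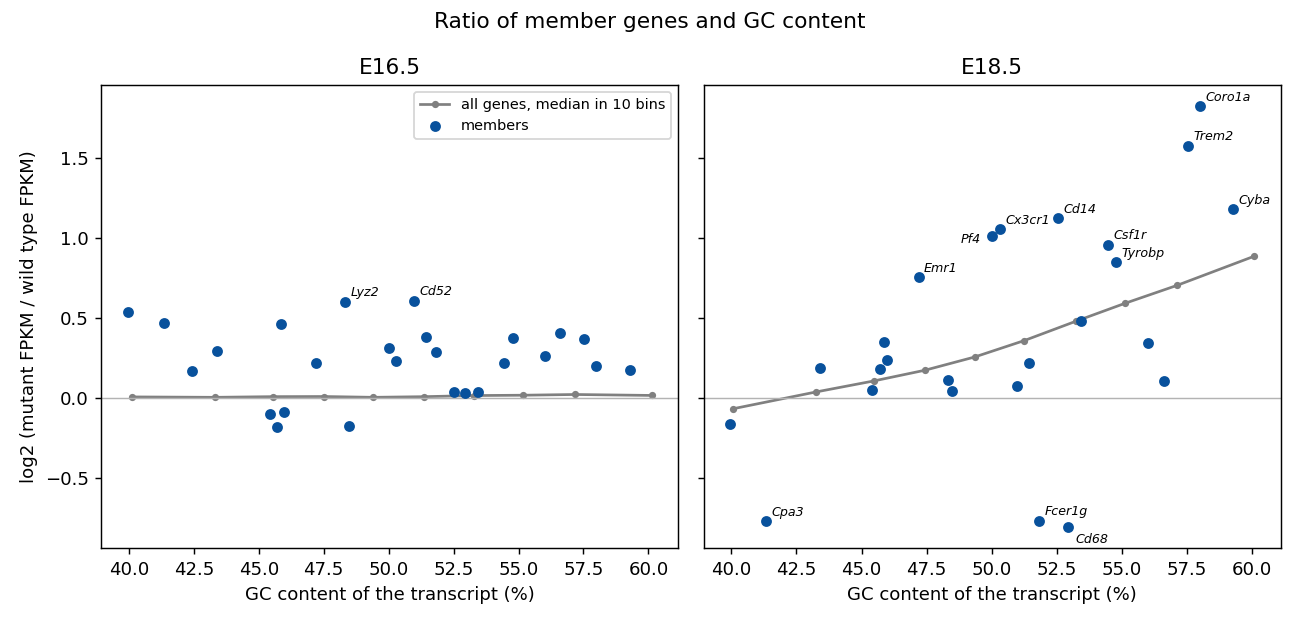
Log2 ratio of mutant to wild type FPKM against the GC content of the transcript, for members that reached 1 FPKM in wild type or mutant (blue points) and as the median of all genes in 10 bins of GC content (grey line), at E16.5 (left) and E18.5 (right). The grey line is flat at E16.5 and rises from -0.07 to 0.89 at E18.5, where *Cpa3*, *Fcer1g* and *Cd68* lie far below it.

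Among receptors of macrophages, *Csf1r*, the receptor for the growth factors CSF1 and IL-34, was at 6.04 FPKM in E16.5 wild type, 7.03 in E16.5 mutant, 3.68 in E18.5 wild type and 7.15 in E18.5 mutant UGS. The E18.5 wild type library was the low one, and the other 3 lay within 1.18-fold of each other. Its log2 ratio of mutant to wild type was 0.22 at E16.5 (counting interval 0.12 to 0.32) and 0.96 at E18.5 (0.81 to 1.11). *Cx3cr1*, the receptor for the chemokine fractalkine, was likewise lowest in E18.5 wild type, at 3.61, 4.25, 1.93 and 4.01 FPKM, with log2 ratios of 0.23 (0.11 to 0.36) and 1.06 (0.85 to 1.27). *Emr1*, an adhesion receptor of mature mouse macrophages, was at 2.54, 2.95, 1.72 and 2.89 FPKM in that order of libraries, again lowest in E18.5 wild type. For these 3 receptors the ratio after subtraction of the length and GC trend was 0.55, 0.83 and 0.55 at E18.5, in the order *Csf1r*, *Cx3cr1* and *Emr1*, so that they stayed above the genes of like composition but under 2-fold.

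*Cd14*, a co-receptor for bacterial lipopolysaccharide, was at 2.78 FPKM in E16.5 wild type, 2.85 in E16.5 mutant, 0.859 in E18.5 wild type and 1.87 in E18.5 mutant UGS. *Trem2*, a lipid-sensing receptor that signals through DAP12, was at 1.16, 1.5, 0.512 and 1.53 FPKM, on 65, 73, 13 and 70 estimated reads. Both were lowest in E18.5 wild type and reached 1 FPKM at that stage only in the mutant. The log2 ratio of *Trem2* at E18.5 was 1.58 with a counting interval from 0.71 to 2.56, and that of *Cd14* was 1.13 (0.57 to 1.68). After subtraction of the length and GC trend these ratios were 0.75 for *Trem2* and 0.54 for *Cd14*. Against E16.5 wild type the E18.5 mutant was lower for *Cd14* and higher for *Trem2*.

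*Mrc1* and *F13a1*, which mark tissue macrophages of the perivascular and connective tissue kind, were higher at the later stage in both genotypes and, in the deposited values, in the mutant at both stages. *Mrc1*, the mannose receptor, was at 6.20 FPKM in E16.5 wild type, 7.61 in E16.5 mutant, 8.15 in E18.5 wild type and 9.29 in E18.5 mutant UGS. *F13a1*, the A chain of coagulation factor XIII, was at 4.21, 5.81, 6.91 and 8.80 FPKM. In both genes the mutant exceeded the wild type of its stage, with log2 ratios of 0.29 and 0.46 at E16.5 and of 0.19 and 0.35 at E18.5, and all 4 counting intervals lay above 0. The E18.5 direction depends on the scaling, since the log2 ratio of *Mrc1* was -0.10 when centred on the median of all genes, -0.24 with library sums made equal and -0.054 with upper quartiles made equal, and that of *F13a1* was 0.061, -0.075 and 0.11. From E16.5 to E18.5, *F13a1* had a log2 ratio of 0.71 in wild type (0.58 to 0.85) and of 0.60 in mutant UGS (0.49 to 0.71), and *Mrc1* of 0.39 and 0.29. *Cd163*, a haemoglobin scavenger receptor, was under 1 FPKM throughout, at 0.327, 0.294, 0.435 and 0.785 FPKM.

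Of the secreted and granule products, *Lyz2*, lysozyme of myeloid cells, was at 9.02 FPKM in E16.5 wild type, 13.7 in E16.5 mutant, 11.3 in E18.5 wild type and 12.2 in E18.5 mutant UGS. Its log2 ratio was 0.60 at E16.5 (0.45 to 0.75) and 0.12 at E18.5 (-0.07 to 0.30), and reads of its close copy *Lyz1* could have been divided between the genes. *Pf4*, a chemokine of platelets, megakaryocytes and some macrophages, was at 9.28, 11.5, 8.01 and 16.2 FPKM, with E18.5 mutant the high library, and its log2 ratio at E18.5 was 1.01 (0.67 to 1.37), or 0.57 after subtraction of the length and GC trend. *Ctss*, the lysosomal protease cathepsin S, differed little between libraries, at 7.0, 6.61, 5.52 and 6.52 FPKM. The remaining macrophage members kept to narrow ranges over the 4 libraries. *Aif1*, an actin-binding protein, was between 1.98 and 2.93 FPKM, *Ly86*, a partner of a Toll-like receptor homologue, between 2.38 and 2.73, and *Mpeg1*, a pore-forming protein of phagosomes, between 1.44 and 2.32.

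*Cd68*, a glycoprotein of macrophage lysosomes, went the other way at E18.5. It was at 4.65 FPKM in E16.5 wild type, 4.75 in E16.5 mutant, 9.54 in E18.5 wild type and 5.45 in E18.5 mutant UGS, so that only E18.5 wild type was set apart and the other 3 lay within 1.17-fold. The log2 ratio of mutant to wild type, 0.03 at the earlier stage, was -0.81 at the later (-1.05 to -0.57), and -1.43 after subtraction of the trend on length and GC content. *Fcer1g*, the gamma chain shared by Fc receptors, had the same order, at 5.14, 6.27, 11.5 and 6.75 FPKM, with a log2 ratio of 0.29 at E16.5 and -0.77 at E18.5 (-1.09 to -0.44). These genes, with *Cpa3* below, were, of the members that passed the filter, those whose E18.5 difference was opposite to that of *Csf1r* and *Cx3cr1* and larger than 1.5-fold.

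Among the genes shared by leukocytes, *Tyrobp*, which encodes the adaptor DAP12, was at 9.56 FPKM in E16.5 wild type, 12.4 in E16.5 mutant, 8.54 in E18.5 wild type and 15.4 in E18.5 mutant UGS. Both mutant libraries were above both wild type libraries, with log2 ratios of 0.37 (0.11 to 0.63) and 0.85 (0.51 to 1.20), the latter being 0.18 after subtraction of the length and GC trend. *Coro1a*, an actin regulator of leukocytes, was at 5.55, 6.38, 1.49 and 5.30 FPKM, which gave the highest ratio of the members that passed the filter, a log2 value of 1.83 at E18.5 (1.44 to 2.21). The E18.5 wild type value was the low one, the other 3 libraries lay within 1.21-fold, and against the E16.5 wild type library the E18.5 mutant was slightly lower. *Laptm5*, a lysosomal membrane protein of haematopoietic cells, was at 6.38, 7.64, 5.20 and 6.59 FPKM. *Cd52*, a short surface glycoprotein, was at 3.14, 4.79, 2.38 and 2.51 FPKM, with a log2 ratio of 0.61 at E16.5 on 60.2 and 79.9 estimated reads (0.11 to 1.12). *Cd53*, a tetraspanin, was between 0.821 and 1.20 FPKM.

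Several defining surface and signalling genes were low. *Ptprc* was at 0.635 FPKM in E16.5 wild type, 0.828 in E16.5 mutant, 0.656 in E18.5 wild type and 0.580 in E18.5 mutant UGS. The integrin chains *Itgam* and *Itgb2*, which pair as the complement receptor of myeloid cells, lay between 0.461 and 0.910 FPKM. *Vav1*, an exchange factor of haematopoietic cells, and *Csf2rb*, the chain shared by receptors of several haematopoietic cytokines, lay between 0.287 and 0.581 FPKM, and reads of *Csf2rb* could have been divided with its close copy *Csf2rb2*. At E16.5 all 5 were higher in the mutant, with log2 ratios from 0.17 to 0.45, and the counting interval of *Vav1* spanned 0 (-0.27 to 0.60). At E18.5 *Ptprc*, *Itgam* and *Itgb2* were lower in the mutant, with log2 ratios of -0.18, -0.41 and -0.61, and *Vav1* and *Csf2rb* were higher, with 0.79 and 0.87. The E18.5 interval of *Ptprc* spanned 0 (-0.57 to 0.21). All 5 failed the filter, so no share of all genes stands beside these directions.

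The oxidase that phagocytes use to make superoxide has a membrane part, encoded by *Cybb* and *Cyba*, and cytosolic parts such as that encoded by *Ncf1*. *Cyba* was much higher than its partner *Cybb*, which was at 0.920 FPKM in E16.5 wild type, 1.03 in E16.5 mutant, 0.751 in E18.5 wild type and 0.723 in E18.5 mutant UGS. The log2 ratio of *Cyba* was 0.18 at E16.5 (0.04 to 0.32) and 1.18 at E18.5 (0.96 to 1.42), whereas that of *Cybb* was 0.17 and -0.06. The transcript of *Cyba* has a GC content of 59.3% and that of *Cybb* of 42.4%, and the E18.5 log2 ratio of *Cyba* after subtraction of the length and GC trend was 0.28. *Ncf1* was at 1.70, 1.74, 1.62 and 2.26 FPKM.

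The antigen presentation members were low, with the class II chains near the limit of detection. *Cd74*, the invariant chain that guides class II molecules to the endosome, was at 0.988 FPKM in E16.5 wild type, 1.31 in E16.5 mutant, 0.955 in E18.5 wild type and 1.03 in E18.5 mutant UGS. The class II chains *H2-Aa*, *H2-Ab1* and *H2-Eb1* ranged from 0.0805 to 0.692 FPKM. *H2-Aa* had 26.7, 24.6, 2.1 and 33.1 estimated reads in the 4 libraries, so that its log2 ratio of 3.10 at E18.5 has a counting interval from 1.23 to 6.30. *H2-Eb1* had 32, 39, 8 and 37 estimated reads, with a log2 ratio of 1.36 at E18.5 (0.23 to 2.67). For both the E18.5 wild type library was the low one, and the other libraries lay within 1.51-fold and 1.41-fold. Of 12 further genes of the class II pathway and of dendritic cells, 3 reached 1 FPKM. *Cd83*, a marker of activated dendritic cells that other cells also transcribe, was at 5.27, 8.31, 1.77 and 6.58 FPKM, *Zbtb46*, a factor of dendritic and endothelial cells, was at 3.17, 3.52, 2.03 and 3.22, and *H2-DMa*, which loads peptide on class II, was at 2.54, 2.57, 1.94 and 2.02.

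Mast cell genes did not move together. *Cpa3*, the granule carboxypeptidase, was at 5.40 FPKM in E16.5 wild type, 7.49 in E16.5 mutant, 15.6 in E18.5 wild type and 9.13 in E18.5 mutant UGS. E18.5 was above E16.5 in both genotypes, with a log2 ratio of 1.53 in wild type (1.34 to 1.71) and 0.29 in mutant UGS (0.11 to 0.46). The mutant was above wild type at E16.5, with a log2 ratio of 0.47 (0.28 to 0.66), and below it at E18.5, with -0.77 (-0.94 to -0.60). *Kit*, which interstitial cells, melanocytes and germ cells also transcribe, was at 9.63, 8.54, 7.40 and 7.62 FPKM, with a log2 ratio of -0.17 at E16.5 (-0.25 to -0.10) and 0.04 at E18.5 (-0.06 to 0.15). *Ms4a2*, the beta chain of the IgE receptor, was at most 0.130 FPKM, on 5.5 to 10.9 estimated reads.

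Other mast cell genes were mixed at E18.5. Of 12 in the table, 5 reached 1 FPKM in either library at E16.5 and all 5 were higher in the mutant, with a median log2 ratio of 0.81, against 54.3% of genes higher and a median of 0.01. At E18.5, 4 of 5 were higher, with a median of 0.27, against 69.4% and 0.30 over all genes. When centred on all genes, 2 were higher and 3 lower, against 51.2% of genes higher in that setting. *Gata2*, a factor of mast cells, endothelium and other tissues, was at 54.8 FPKM in E16.5 wild type, 69.1 in E16.5 mutant, 51.3 in E18.5 wild type and 51.9 in E18.5 mutant UGS. *Hdc*, which makes histamine, was at 7.80, 10.6, 5.82 and 7.03 FPKM. *Tpsb2*, a tryptase, was at 5.10, 9.73, 5.52 and 10.4 FPKM, with log2 ratios of 0.93 at E16.5 and 0.92 at E18.5. *Mcpt4*, a chymase, had the same signs as *Cpa3*, with a log2 ratio of 0.83 at the earlier stage and -0.30 at the later. It was the only 1 of the 5 that was lower at E18.5, whereas *Cma1* had log2 ratios of 0.81 and 1.09. Both genes were named after their values were seen. Of markers of other cells that transcribe *Kit*, *Ano1* was between 12.8 and 16.6 FPKM and *Etv1* between 10.3 and 16.9, both being genes of interstitial cells and other tissues, while the other 5 were under 1 FPKM and the melanocyte gene *Tyr* was at most 0.207.

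Lymphoid genes were barely detected. *Il7r*, the receptor for interleukin-7, was at 0.0209 FPKM in E16.5 wild type, 0.168 in E16.5 mutant, 0.0689 in E18.5 wild type and 0.0764 in E18.5 mutant UGS, on 4.4, 31.1, 6.7 and 13.3 estimated reads. The E16.5 mutant library was the high one, with a log2 ratio of 3.01 and a counting interval from 1.65 to 5.12. *Cd3e*, a chain of the T cell receptor complex, had 4.1, 6.1, 4.1 and 0 estimated reads. Among further genes of T and natural killer cells, *Cd247*, a signalling chain of the T cell receptor complex, was between 3.30 and 3.57 FPKM, and *Lck*, a kinase that acts on that complex, was between 1.42 and 1.94 FPKM.

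A further 40 macrophage genes, listed with earlier results of these data known, were used to see whether the members stood for macrophage genes at large. In this list, 29 genes reached 1 FPKM in wild type and 32 in mutant UGS at E16.5, against 14562 and 14508 of all rows. The numbers at E18.5 were 27 and 32, against 14028 and 14462 of all rows. Some therefore passed the filter only through the mutant. At E16.5, 30 of 32 that passed the filter were higher in the mutant, with a median log2 ratio of 0.23, against 54.3% of genes and a median of 0.01. At E18.5, 23 of 32 were higher, with a median of 0.19, against 69.4% of genes and a median of 0.30, and 7 were at least 2-fold higher and 1 at least 2-fold lower, against 15% and 2.87%. When centred on all genes, 15 were higher and 17 lower at E18.5, with a median of -0.10, against 51.2% of genes higher. With the length and GC trend subtracted, 12 were higher and 20 lower, against 51.3% higher. Then 2 were at least 2-fold higher and 1 at least 2-fold lower, against 3.05% and 4.61%. *Ctsb*, a lysosomal protease of many cells, was at 47.7 FPKM in E16.5 wild type, 52.1 in E16.5 mutant, 47.8 in E18.5 wild type and 53.7 in E18.5 mutant UGS. *Dab2*, an endocytic adaptor, was at 24.1, 25.8, 45.6 and 25.5 FPKM, and *Maf*, a transcription factor of resident macrophages and other cells, at 20.8, 25.1, 37.5 and 26.0. As with *Cd68*, the E18.5 wild type library was high for both, with log2 ratios of mutant to wild type of -0.83 and -0.53.

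Ligands that attract or sustain these cells were measured in the same libraries. Of 17 such genes, 7 passed the filter at each stage and none was 2-fold higher or lower, against 0.434% and 1.11% of genes at E16.5 and 15% and 2.87% at E18.5. Their log2 ratios ranged from -0.30 to 0.45 at E16.5 and from -0.36 to 0.70 at E18.5. *Cxcl12*, a chemokine of stromal cells, was at 149 FPKM in E16.5 wild type, 196 in E16.5 mutant, 172 in E18.5 wild type and 181 in E18.5 mutant UGS. *Il33*, an alarmin that acts on mast and innate lymphoid cells, was at 9.37, 12.8, 16.2 and 12.7 FPKM, with a log2 ratio of 0.45 at E16.5 and -0.36 at E18.5. *Kitl*, the ligand of Kit, was at 11.6, 11.7, 10.5 and 10.4 FPKM.

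Markers of blood, liver and some other leukocytes moved in the same E16.5 pair. The summed level of 17 neutrophil genes was 14.3 FPKM in E16.5 wild type, 86.9 in E16.5 mutant, 16 in E18.5 wild type and 11.5 in E18.5 mutant UGS. The genes with the highest mean level were *S100a8*, at 4.57 FPKM in wild type and 31.1 in mutant UGS at E16.5, and *S100a9*, at 3.54 and 29.0 FPKM. At E16.5, 4 of the 17 reached 1 FPKM in wild type and 8 in the mutant, against 14562 and 14508 of all 25819 rows. The sum of 8 B cell genes was 3.33, 8.03, 4.18 and 3.32 FPKM in the 4 libraries. Only 1 of them, *Blnk*, reached 1 FPKM, at 2.32, 4.03, 3.27 and 2.31 FPKM. For 15 genes of T, natural killer and innate lymphoid cells the sum was 9.10, 9.79, 7.71 and 7.95 FPKM. That of 8 hepatocyte genes was 3.88, 18.8, 10.6 and 5.39 FPKM. The sum of 7 erythroid genes, mostly globin, was 12226 FPKM in E16.5 wild type, 19619 in E16.5 mutant, 3806 in E18.5 wild type and 17305 in E18.5 mutant UGS. The sum of 10 endothelial genes was 131, 148, 129 and 138 FPKM. Of the 10, 9 were higher in the mutant at E16.5, against 54.3% of genes. The part of blood, of attached tissue or of vessels in the member ratios at E16.5 was not tested.

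**Figure D4:**
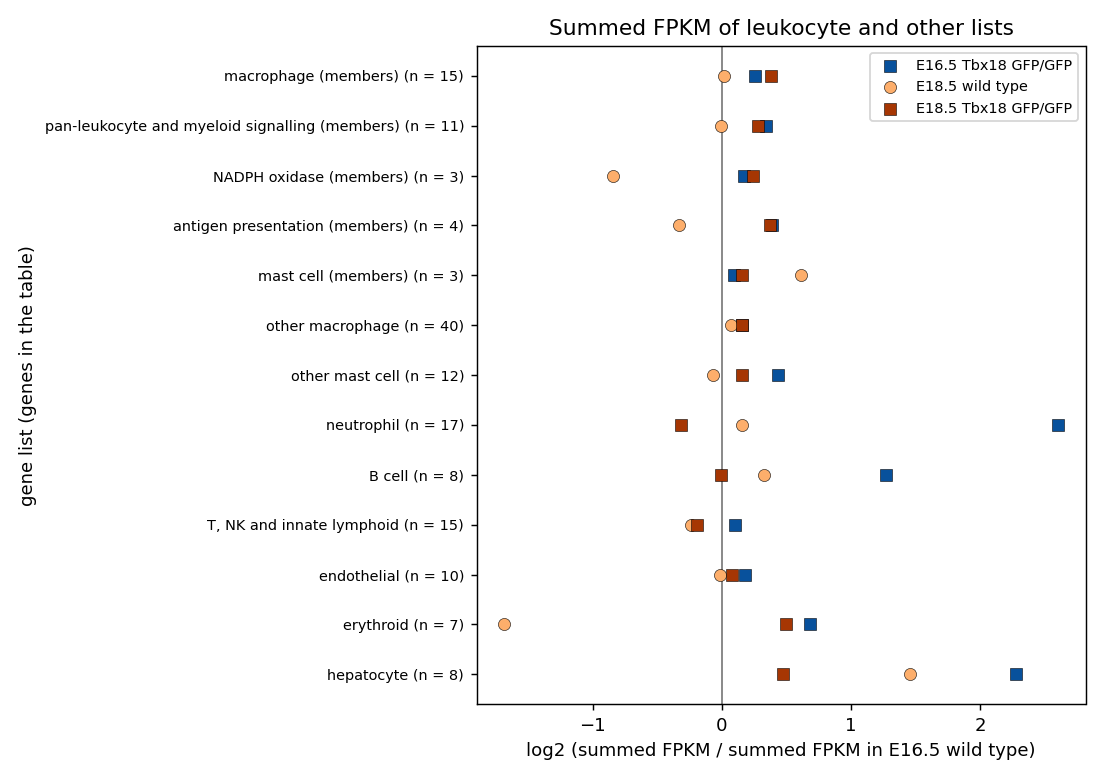
Log2 ratio of the summed FPKM of each list to its sum in the E16.5 wild type library, for the other 3 libraries, with 1 point per library and no error bar; members are in the 5 upper rows, without the 2 lymphoid genes. In the macrophage row the E16.5 and E18.5 mutant sums are 76.3 and 83.4 FPKM against 64.0 and 64.6 FPKM in wild type, an order that does not hold with library sums made equal, while the neutrophil row is far to the right in E16.5 mutant alone, and the erythroid row is far to the left in E18.5 wild type.

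Between the stages, the members differed less in the mutant than in the wild type pair of libraries. From E16.5 to E18.5 in mutant UGS, 12 of 26 members were higher, against 35.3% of genes, and 14 lower, with a median log2 ratio of -0.02 against -0.06 over 14695 genes, and none was at least 2-fold higher or lower, against 1.3% and 0.497% of genes. Among those 26, *Cd52* had the largest fall in mutant UGS, by 0.93 on the log2 scale, and *F13a1* the largest rise, by 0.60. In wild type UGS, 8 of 24 were higher at E18.5, against 27.8% of genes, and 16 lower, with a median log2 ratio of -0.25 against -0.35 over 14772 genes. There, *Cd68*, *Fcer1g* and *Cpa3* were at least 2-fold higher, against 2.66% of genes, and *Coro1a*, *Cd14* and *Trem2* at least 2-fold lower, against 16.6%. *Cd14* and *Trem2* passed the filter there only through E16.5, the stage at which they were high. These wild type differences use the E18.5 library that stands apart, and the 2 comparisons at E18.5 and in wild type share it. Over the other 3 libraries, the ratio of the highest to the lowest value was 1.32 at the median of the 26 members that reached 1 FPKM, against 1.14 over all genes.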

How the data were processed

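RNA-Seq libraries were made from pooled RNA of 3 male embryos each with a stranded mRNA kit. According to the submitters' processing notes and the study's methods, the authors used CASAVA 1.8.2, Trimmomatic 0.30, TopHat2 2.1.0 at default options and Cufflinks 2.2.1, and the deposited values are the FPKM of Cufflinks, 1 column per library, with no further scaling stated. The genome build is not given in the sources used here, so no position of the table was combined with a reference genome.

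The members and all gene lists were chosen with earlier results of these data known. Members were rows whose symbol was listed, and all are named. From each other list, at most the 3 genes with the highest mean FPKM are named. *Mcpt4* and *Cma1* are exceptions, named after their values were seen. Ratios of mutant to wild type FPKM were taken without a pseudocount where wild type or mutant reached 1 FPKM and neither was at 0 (14 values under 1e-06 were read as 0), and counted at 2-fold and 1.5-fold, as no test was possible with 1 library per group. Depth was estimated from 15 to 26 olfactory receptor genes of up to 1100 bases at a single read, and intervals of 95% were exact binomial intervals on the estimated reads. Of 152 member read numbers, 62 were whole to within 0.1 read and the rest were not. Length and GC content came from GENCODE transcripts, by symbol, for all 38 members and for 89.5% of rows with at least 1 FPKM. The trend was a lowess fit with span 0.3. Alternatives were other scalings, pseudocounts and filters, and E16.5 wild type in place of E18.5 wild type. The steps were tested on simulated data. Calculations used statsmodels 0.14.6, scipy 1.17.1, pandas 2.3.3 and numpy 2.4.6 in Python 3.11.15, and figures were drawn in matplotlib 3.10.9.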

Additional observations from a re-analysis of the deposited data

Results flagged for a closer look

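Of the 25 members that passed the filter at both stages, 8 had mutant to wild type ratios of opposite sign at E16.5 and E18.5. The share was 32%, against 43.9% of 14454 genes. With 1 library per group the difference between the stages was not tested. The log2 ratio at E18.5 minus that at E16.5 was -1.24 for *Cpa3*, -1.05 for *Fcer1g*, -0.84 for *Cd68* and -0.70 for *Cd53*, which were higher in the mutant at E16.5 and lower at E18.5. It was 0.36 for *Mpeg1*, 0.32 for *Ctss*, 0.22 for *Kit* and 0.15 for *Ly86*, which were lower in the mutant at E16.5 and higher at E18.5. These 4 were lower in the mutant at both stages when centred on the median of all genes, where the E18.5 log2 ratios were -0.10, -0.049, -0.25 and -0.24, and also with library sums or upper quartiles made equal. *Cpa3*, *Fcer1g* and *Cd53* kept opposite signs under every scaling and with the length and GC trend subtracted, and of these *Cd68* did so only when centred and with upper quartiles made equal. Counting intervals excluded 0 at both stages only for *Cpa3*.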

How the results depend on the processing

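No paired analysis was possible because each group was 1 library, and no library could be left out of a group. With 1 library per group no result has a p-value, and a ratio or count was taken as moved when a log2 value changed by over 0.1 or a count by over 1.5 times. Of the members at least 2-fold apart in the main setting, *Cd14* and *Coro1a* changed sign, to log2 ratios of -0.57 and -0.068 at E18.5 against E16.5 wild type, and none did under the other alternatives.
At E16.5 the median log2 ratio of the members, 0.25, became 0.14 with library sums made equal, and without a filter on level 1 member was 2-fold higher. At E18.5 the median, 0.24, became -0.18 with sums made equal, -0.049 when centred on all genes, -0.0026 with upper quartiles made equal and -0.017 with the length and GC trend subtracted. The 6 members at least 2-fold higher became 2 with sums or upper quartiles made equal, when centred, or with a pseudocount of 1, 0 with the trend subtracted, 3 with a floor of 5 FPKM, and 1 against E16.5 wild type, an alternative chosen after seeing the data. The 0 that were 2-fold lower became 3 under each scaling and with the trend subtracted, and 1 without a filter. Higher and lower together, 6 in the main setting, came to 2 with a pseudocount of 1, 3 with the trend subtracted or at least 5 FPKM, and 1 against E16.5 wild type.
From E16.5 to E18.5 in wild type, the median of -0.25 became 0.040 with sums made equal, 0.078 when centred, 0.0063 with upper quartiles made equal and 0.25 with the trend subtracted. The 3 at least 2-fold lower became 1 with the trend subtracted, with at least 5 FPKM in either library or with at least 1 FPKM in both, and without a filter 6 were higher and 10 differed in all. In the mutant, without a filter, 1 was higher and 1 lower, 2 in all, and the median became 0.086 with at least 5 FPKM. The estimated depth of 29000000 reads in E18.5 wild type limits the class II, mast cell receptor and lymphoid genes most, several of which had under 10 reads there.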
